A study of Elaeis oleifera with 12 samples.

Results

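LOC105036039 (BURP domain-containing protein 3-like) and LOC105048270 (BURP domain-containing protein 6) are 2 of the 29040 loci measured in the abscission zone (AZ) at the base of the fruit of the American oil palm, Elaeis oleifera. They were selected by locus because an earlier look at the same libraries showed large rises from the pre-ripe (PR) to the ripe stage, so their stage changes are described here without a test. RNA was sequenced from a normally shedding palm (Sd, individual code 28-7) and from a palm of the same progeny that sheds little or no fruit (NSd, individual code 26-11). Each palm was sampled at the PR stage, on the bunch above with less orange fruit, and at the ripe stage, judged by orange fruit and the lowest place of the bunch in the whorl. No treatment was applied and no transgene was present. The 4 groups held 3 libraries each: PR NSd (replicates 1 to 3), ripe NSd (4 to 6), PR Sd (7 to 9) and ripe Sd (10 to 12). Every sample pooled AZ tissue dissected from the bases of many fruits, and the 3 samples of a group came from 1 bunch of 1 palm. The p-values therefore cover only how samplings of 1 bunch vary, stage cannot be told apart from bunch, and the shedding character cannot be told apart from the palm.

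BURP domain proteins are a plant family named after the founding members BNM2 of rapeseed, USP of faba bean, RD22 of Arabidopsis and the polygalacturonase beta subunit of tomato. They share a conserved C-terminal domain, and many carry a signal peptide that directs them to the secretory pathway or the cell wall. RD22 transcripts in Arabidopsis accumulate under dehydration and abscisic acid (ABA), and the tomato beta subunit is a non-catalytic cell wall protein that binds polygalacturonase during fruit ripening. The roles of the oil palm loci are not known from these data, and the file descriptions give only the family and a number.

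Levels are RPKM, the reads at a locus scaled to the length of its transcript and to the aligned reads of the library, so that loci can be compared per length. The libraries held 19090375 to 34004517 aligned reads. Pearson's r between libraries, over loci of log2(RPKM + 1), was 0.978 to 0.9943 within groups. It was lower, at 0.9366 to 0.9641, between PR NSd libraries and those of the other groups, against 0.9664 to 0.9882 for all other pairs between groups. Reads on rRNA loci made up 15.7 ± 5.83% of the PR NSd libraries (SD, n = 3), against 4.42 ± 2.16% to 7.11 ± 6.09% in the other groups. The median log2 difference of all tested loci was 0.31 for the stage change in NSd and -0.35 for PR NSd against PR Sd. It was 0.03 for the stage change in Sd and -0.06 for ripe NSd against ripe Sd. Values that use the PR NSd libraries are to be read against these shifts.

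At the PR stage, LOC105036039 was at 98.2, 158 and 170 RPKM in Sd and at 103, 70.9 and 78.8 RPKM in NSd. At the ripe stage it was at 1695, 1156 and 1323 RPKM in Sd and at 1199, 843 and 902 RPKM in NSd. Every ripe library was far above every PR library, whichever the palm. The group means (± SD, n = 3) were 84.4 ± 17.0 RPKM for PR NSd, 981 ± 191 for ripe NSd, 142 ± 38.4 for PR Sd and 1391 ± 276 for ripe Sd. The ripe mean was 9.80-fold the PR mean in Sd and 11.6-fold in NSd. Even the lowest ripe library exceeded the highest PR library of the same palm, by 6.79-fold in Sd and 8.14-fold in NSd. Ranked by RPKM among the 28931 loci not annotated as rRNA, LOC105036039 stood at places 638 to 1749 in the PR libraries and at places 25 to 73 in the ripe libraries. Transcripts of this locus were thus among the most abundant of the ripe AZ samples.

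LOC105048270 was present at lower levels and moved in the same way. It was at 41.2, 55.9 and 68.4 RPKM in PR Sd and at 43.8, 30.4 and 29.7 RPKM in PR NSd. In the ripe libraries it was at 655, 422 and 488 RPKM in Sd and at 445, 344 and 334 RPKM in NSd. As for LOC105036039, no PR library reached any ripe library, and replicate 10 was the highest of all. The group means (± SD, n = 3) were 34.6 ± 7.93 RPKM for PR NSd, 374 ± 61.4 for ripe NSd, 55.2 ± 13.6 for PR Sd and 522 ± 120.0 for ripe Sd. The ripe mean was 9.46-fold the PR mean in Sd and 10.8-fold in NSd, and the lowest ripe library was 6.18-fold and 7.63-fold the highest PR library. Its place by RPKM went from 1926 to 4035 in the PR libraries to 98 to 272 in the ripe libraries.

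**Figure D1:**
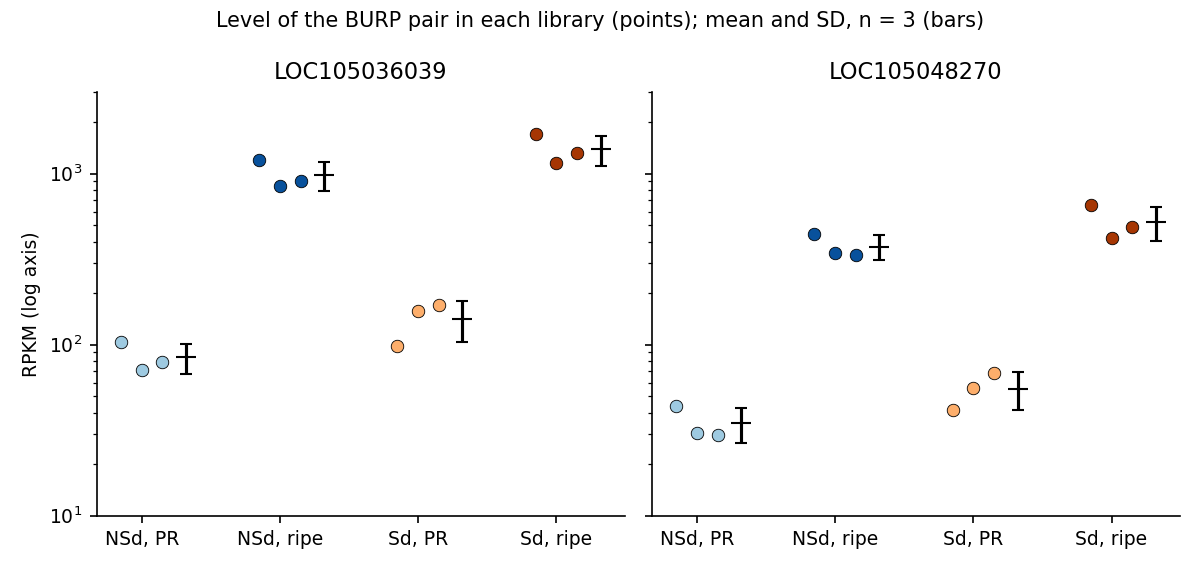
RPKM of LOC105036039 and LOC105048270 in each of the 12 libraries (points) by group, with the mean and SD of 3 libraries, on log axes. The ripe libraries of LOC105036039 sit between 843 and 1695 RPKM and its PR libraries between 70.9 and 170 RPKM. Those of LOC105048270 sit between 334 and 655 RPKM and between 29.7 and 68.4 RPKM.

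On the log2(RPKM + 1) scale the stage change of LOC105036039 was 3.30 (SE 0.23) in Sd and 3.53 (SE 0.23) in NSd. For LOC105048270 it was 3.22 (SE 0.22) in Sd and 3.41 (SE 0.22) in NSd. These estimates come from 1 limma model of all libraries, in which 20495 loci with 1 RPKM or more in some library were tested. Ordered by the change, LOC105036039 and LOC105048270 took places 5 and 7 in Sd and places 25 and 35 in NSd. Calls required a p under 0.01 after Benjamini-Hochberg adjustment together with a log2 difference beyond 1 in either direction. Over all tested loci, 135 (0.659%) were called higher and 88 (0.429%) lower at the ripe stage in Sd. In NSd 1592 (7.77%) were called higher and 630 (3.07%) lower. The pair was chosen on these contrasts, so no call is given for its members. The stage changes of the palms differed by 0.22 (SE 0.33) for LOC105036039 and by 0.18 (SE 0.31) for LOC105048270 (NSd minus Sd), each smaller than its SE and than the median of 0.30 over all tested loci.

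The reads behind these values were many. LOC105036039 held 1561 to 3861 reads in a PR library and 18120 to 42451 in a ripe library, and LOC105048270 held 745 to 1966 and 8502 to 20787. Counting error was 0.485 to 3.66% of a value, against a coefficient of variation between the libraries of a group of 16.4 to 27.1%. Scaling adds an error of its own: rescaled by the median ratio, the PR NSd means were 105.1 RPKM for LOC105036039 and 43.3 RPKM for LOC105048270. The read numbers were recovered from the steps of the RPKM values, with transcript lengths of 1038 bases for LOC105036039, whose reference record is a partial mRNA, and 1315 bases for LOC105048270.

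The members kept almost the same ratio in every library. LOC105048270 divided by LOC105036039 was 0.420, 0.355 and 0.402 in PR Sd and 0.387, 0.365 and 0.369 in ripe Sd. In NSd it was 0.423, 0.429 and 0.377 at the PR stage and 0.371, 0.408 and 0.370 at the ripe stage. The group means of the ratio overlapped in their spread, at 0.392 ± 0.034 and 0.374 ± 0.011 in PR and ripe Sd and 0.410 ± 0.029 and 0.383 ± 0.021 in PR and ripe NSd (SD, n = 3). Over the 12 libraries the ratio varied by 6.56% (coefficient of variation), where counting error alone was 0.847 to 4.45%. The level of each member thus moved by over 9-fold while the proportion between them stayed between 0.355 and 0.429. The differences between samplings were shared in large part. Replicate 10 was the highest ripe Sd library, replicate 4 the highest ripe NSd library, replicate 1 the highest PR NSd library and replicate 7 the lowest PR Sd library, for both loci. The other NSd libraries changed places. Replicate 6 was above replicate 5, and replicate 3 above replicate 2, for LOC105036039, and below them for LOC105048270. Within the 6 PR libraries r between the members was 0.979, and within the 6 ripe libraries it was 0.987. Among 6985 loci, each member took place 5 for the other at the PR stage and place 1 at the ripe stage. These r values are descriptions, over libraries that share bunch, palm and depth.

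The pair did not run alone. LOC105037817 (BURP domain-containing protein 3) stayed at 0.407 to 0.526 of LOC105036039 over the 12 libraries, with a coefficient of variation of 8.61%, and LOC105042312 (BURP domain-containing protein 6) at 0.359 to 0.503, with 11.7%. LOC105042312 was 0.963 to 1.22 times LOC105048270 in each library. Within the PR libraries r was 0.996 for LOC105037817 with LOC105036039 and 0.983 for LOC105042312 with LOC105048270. Both were above the 0.979 between the members of the pair. Within the ripe libraries the members were closest to each other. LOC105037817 averaged 72.9 ± 18.4 and 607 ± 149 RPKM in PR and ripe Sd and 41.4 ± 9.32 and 450.0 ± 33.0 in PR and ripe NSd (SD, n = 3). LOC105042312 averaged 62.7 ± 20.5 and 541 ± 147 RPKM in Sd and 38.1 ± 12.4 and 426 ± 56.2 in NSd. So 4 BURP loci, and not the selected pair only, rose together, in proportions that varied far less than their levels. The proportion of LOC105037817 to LOC105036039 was not the same at both stages of Sd. There it averaged 0.515 ± 0.017 at the PR stage and 0.433 ± 0.021 at the ripe stage, without overlap. In NSd it averaged 0.489 ± 0.011 and 0.466 ± 0.054 (SD, n = 3), with overlap. Whether reads of 1 transcript were spread over similar loci was not tested, because the transcript sequences were not used here, and the reads of an E. oleifera palm had been mapped to transcripts of E. guineensis.

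**Figure D2:**
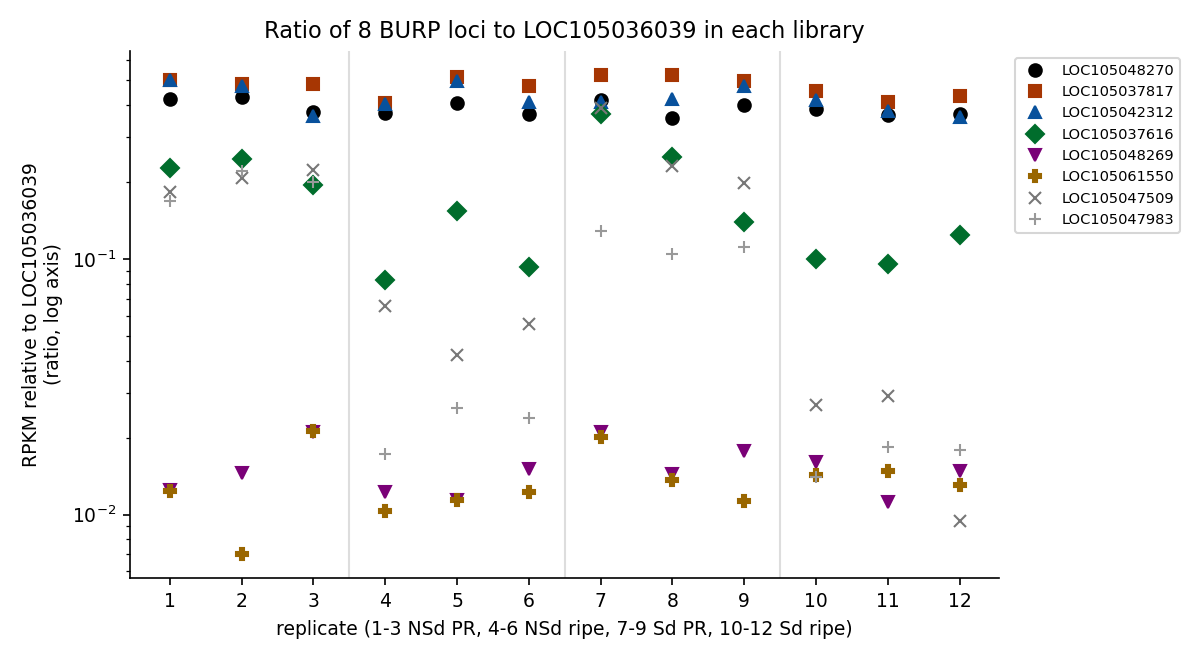
RPKM of other BURP loci divided by that of LOC105036039 in each of the 12 libraries, on a log axis, one symbol per locus. LOC105048270, LOC105037817 and LOC105042312 stay between 0.355 and 0.526 in every library, while LOC105047509 spans a 41.4-fold range. LOC105037817 is lower in the ripe Sd than in the PR Sd libraries.

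By mean, the order of the groups was the same for both members: the PR groups below the ripe groups, and NSd below Sd within each stage. Neighbours of the same stage overlapped. At the PR stage replicate 1 of NSd (103 RPKM of LOC105036039 and 43.8 RPKM of LOC105048270) was above replicate 7 of Sd, and at the ripe stage replicate 4 of NSd was above replicate 11 of Sd for both loci. The step from PR Sd to ripe NSd was the only one between neighbours without overlap. The NSd mean of LOC105036039 was 0.594 of the Sd mean at the PR stage and 0.705 at the ripe stage. For LOC105048270 it was 0.627 and 0.717.

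The palm differences were not used to choose the pair and were tested with limma over all 20495 loci, with Benjamini-Hochberg adjustment. Neither member was called in any of them. At the ripe stage LOC105036039 differed by -0.50 (log2, NSd minus Sd, SE 0.23, adjusted p = 0.178) and LOC105048270 by -0.47 (SE 0.22, adjusted p = 0.192). The 95% intervals ran from -1.005 to 0.00083 and from -0.95 to 0.017, so a lower level in NSd by as much as 1 on the log2 scale and no difference are both inside or at the edge of these intervals. Of all loci, 501 (2.44%) were called there. At the PR stage the differences were -0.72 (interval -1.23 to -0.22, adjusted p = 0.0203) and -0.65 (interval -1.13 to -0.17, adjusted p = 0.0273), where 2642 loci (12.9%) were called and the median of all loci was itself at -0.35. Averaged over the stages they were -0.61 (interval -0.97 to -0.26, adjusted p = 0.0111) and -0.56 (interval -0.90 to -0.22, adjusted p = 0.0143), with 712 loci (3.47%) called and a median of -0.21. Both members thus had lower means in NSd at each stage, by amounts that fell short of the call.

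The PR and the averaged difference moved with the scaling. When RPKM was rescaled by the median ratio over loci, the PR difference was -0.32 for LOC105036039 (adjusted p = 0.341, limma) and -0.25 for LOC105048270 (adjusted p = 0.447). The averaged difference was then -0.38 (adjusted p = 0.134) and -0.33 (adjusted p = 0.183). With reads on rRNA loci left out of the totals the PR difference was -0.55 (adjusted p = 0.0819) and -0.48 (adjusted p = 0.114). The averaged difference was then -0.51 (adjusted p = 0.0393) and -0.45 (adjusted p = 0.0539). The part of the rRNA reads in these differences was otherwise not tested.

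**Figure D3:**
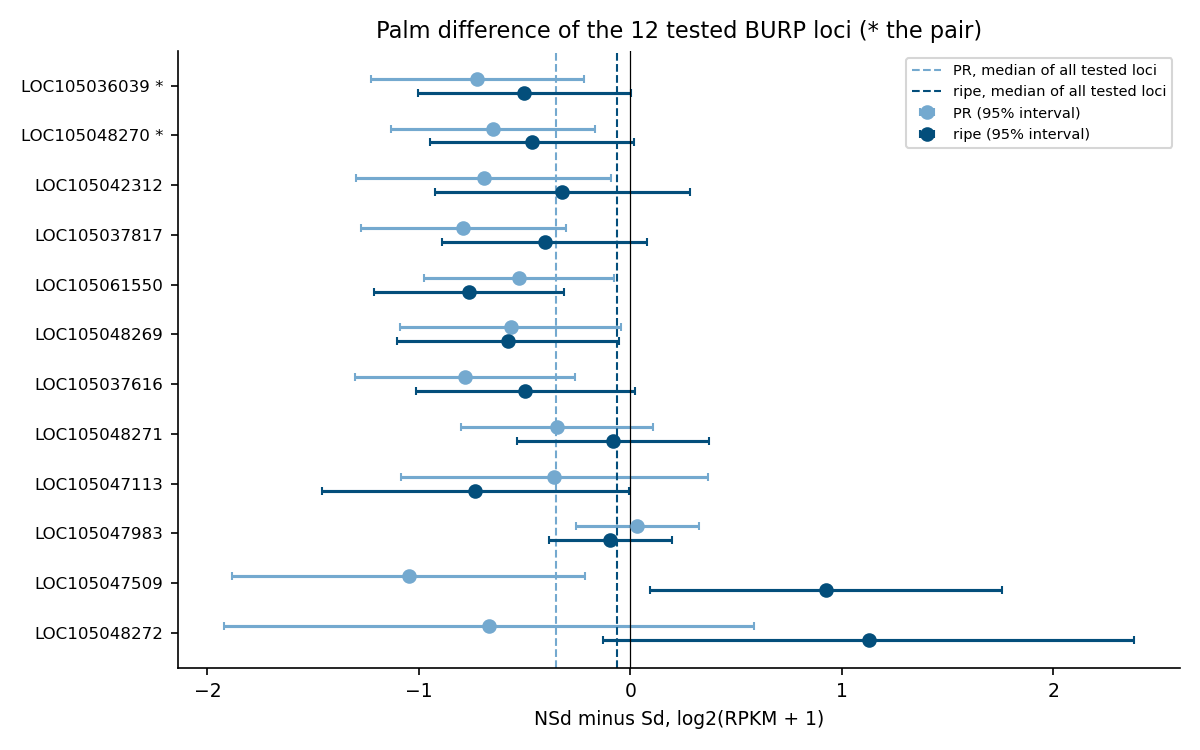
Log2 difference between the palms (NSd minus Sd) at the PR and the ripe stage for the 12 tested BURP loci, with 95% intervals from limma and the median of all tested loci as dashed lines. The pair is marked with asterisks and lies at -0.72 and -0.65 at the PR stage and at -0.50 and -0.47 at the ripe stage.

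The BURP family as described in the files holds 21 loci. Of these, 12 were tested (the pair and 10 others). Another 5 had 0 reads in every library, and 4 were detected with at most 9 reads in a library but did not reach 1 RPKM. A count of 0 in 1 library allows an expected count of up to 3, so absence is not shown. Among the 10 other tested loci, 5 were called higher at the ripe stage in Sd and 7 in NSd, and 0 were called lower, beside 0.659% and 7.77% of all loci called higher. Their median log2 change was 1.56 in Sd and 1.99 in NSd, against 0.03 and 0.31 over all loci. The loci were listed by description with earlier results known. LOC105048271, among the 7 called in NSd, passed the filter through its ripe libraries only, so nothing is read from its call. Its changes also entered the medians.

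Beside LOC105037817 (log2 change 3.05 in Sd, adjusted p = 5.7e-05, and 3.43 in NSd, limma) and LOC105042312 (3.11 in Sd, adjusted p = 0.000258, and 3.49 in NSd), 3 BURP loci of lower level rose in both palms. LOC105037616 (protein 6) rose from 33.1 ± 8.31 to 148 ± 32.5 RPKM in Sd and from 18.7 ± 4.18 to 104 ± 23.4 RPKM in NSd (SD, n = 3), or 4.47-fold and 5.58-fold. These folds were below those of the pair. Its ratio to LOC105036039 spread over 4.46-fold, in part within a group, since in PR Sd alone it ran from 0.139 to 0.369. LOC105048269 (protein 6-like) rose from 2.45 ± 0.492 to 19.9 ± 7.18 RPKM in Sd and from 1.33 ± 0.315 to 12.7 ± 2.73 RPKM in NSd. LOC105061550 (protein 6) rose from 2.02 ± 0.123 to 19.6 ± 4.09 RPKM in Sd and from 1.15 ± 0.601 to 11.0 ± 1.41 RPKM in NSd. Both stood at levels far below the pair yet rose 8.12-fold to 9.71-fold, close to the folds of the pair. In Sd their PR and ripe libraries did not overlap, nor did they in NSd.

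Other members behaved differently. LOC105047509 (protein 3) was at 38.3, 36.5 and 33.7 RPKM in PR Sd and at 45.5, 33.6 and 12.4 RPKM in ripe Sd, with no call (log2 change -0.41, adjusted p = 0.58, limma, and 0.11 without replicate 12). In NSd it was at 18.8, 14.7 and 17.6 RPKM at the PR stage and at 78.7, 35.4 and 50.1 RPKM at the ripe stage, where it was called (1.56, adjusted p = 0.00624). That call held in 10 of 19 alternatives and was lost, for example, with RPKM rescaled by the median ratio (1.21, adjusted p = 0.0378), without replicate 4 (1.26, adjusted p = 0.029) and without replicate 2 (1.46, adjusted p = 0.0237). Its stage changes differed between the palms by 1.97 (adjusted p = 0.0152), short of the call, in a contrast that called 2719 loci (13.3%). LOC105048272 (protein 6) showed the same picture at lower levels, with means of 17.0 and 12.2 RPKM in PR and ripe Sd and 10.7 and 21.6 RPKM in NSd, and with no call in either palm. Its change in Sd was -0.86 (adjusted p = 0.418, limma) and turned to 0.02 without replicate 12. In replicate 12 it was at 1.88 RPKM, the lowest of its libraries, as was LOC105047509. LOC105048271 (protein 6) passed the filter through its ripe libraries only, so its stage changes are given without a p. They were 1.25 in NSd and 0.99 in Sd (log2). Its interaction, the difference of these changes, was 0.26 and is likewise given without a p. The protein 12 loci LOC105047983 (16.1 to 23.0 RPKM) and LOC105047113 (1.64 to 4.37 RPKM, range of group means) were not called.

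**Figure D4:**
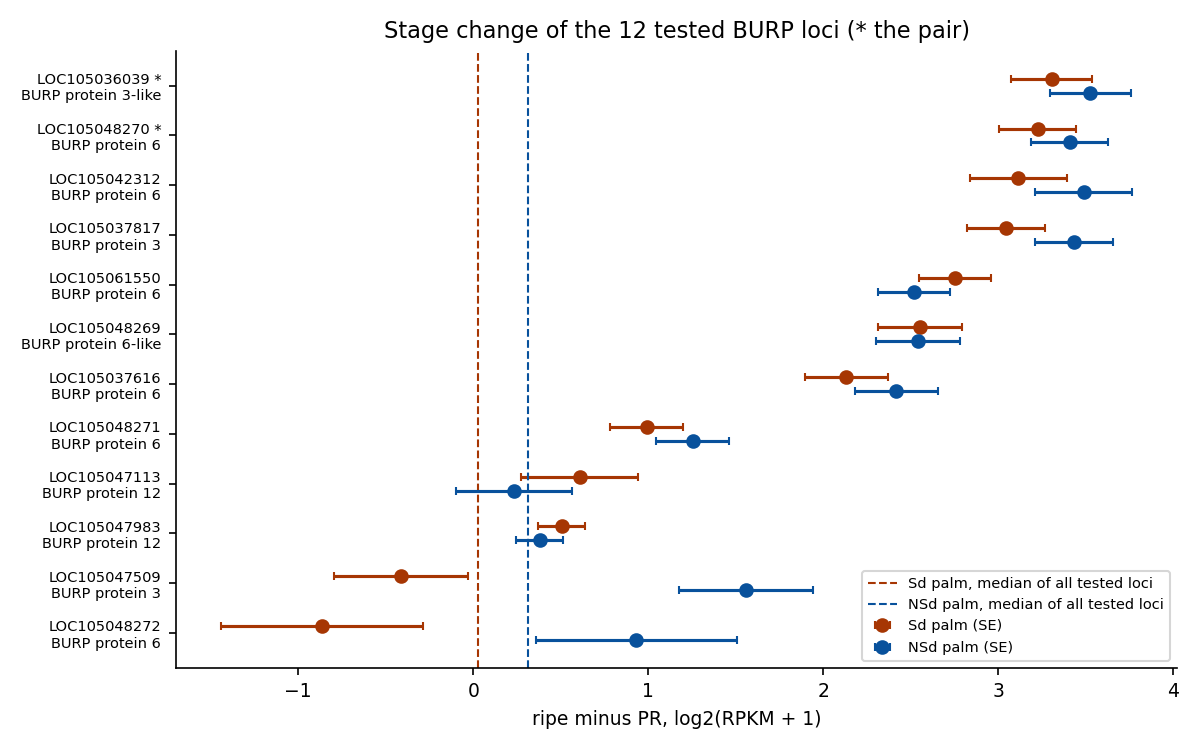
Log2 change from the PR to the ripe stage in each palm for the 12 tested BURP loci, with the SE of the limma fit drawn as bars and the median of all tested loci as dashed lines. The pair, LOC105037817 and LOC105042312 lie above 3 in both palms, and LOC105047509 and LOC105048272 lie below 0 in Sd, at -0.41 and -0.86, and turn to 0.11 and 0.02 without replicate 12.

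In the palm comparisons 0 of the 10 other tested BURP loci were called with limma. At an unadjusted p under 0.05, 1 was higher and 3 lower in NSd at the ripe stage, beside 10.3% and 18.0% of all loci. At the PR stage 0 were higher and 6 lower, beside 9.78% and 49.0%, and in the average 0 and 6, beside 7.51% and 43.0%. LOC105061550 was at 24.3, 17.1 and 17.3 RPKM in ripe Sd and at 12.4, 9.61 and 11.0 RPKM in ripe NSd (log2 difference -0.76, SE 0.21, adjusted p = 0.0341, limma). Averaged over the stages its difference was -0.65 (adjusted p = 0.0047), below the required size. It was singled out after its values were seen.

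Summed over the 21 loci, BURP transcripts went from 443 ± 87.1 to 3321 ± 742 RPKM in Sd, or 7.50-fold. In NSd the sum went from 266 ± 54.9 to 2461 ± 362 RPKM, or 9.26-fold (SD, n = 3). Because RPKM divides by length, this sum still depends on how reads were divided among loci of unequal length. The reads on all BURP loci, which do not, went from 524 ± 98.6 to 3689 ± 823 per 1000000 aligned reads in Sd (7.04-fold) and from 322 ± 62.2 to 2750 ± 406 in NSd (8.55-fold). The pair made up 44.1% of the sum in PR Sd and 57.7% in ripe Sd, and 44.8% and 54.9% in NSd.

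**Figure D5:**
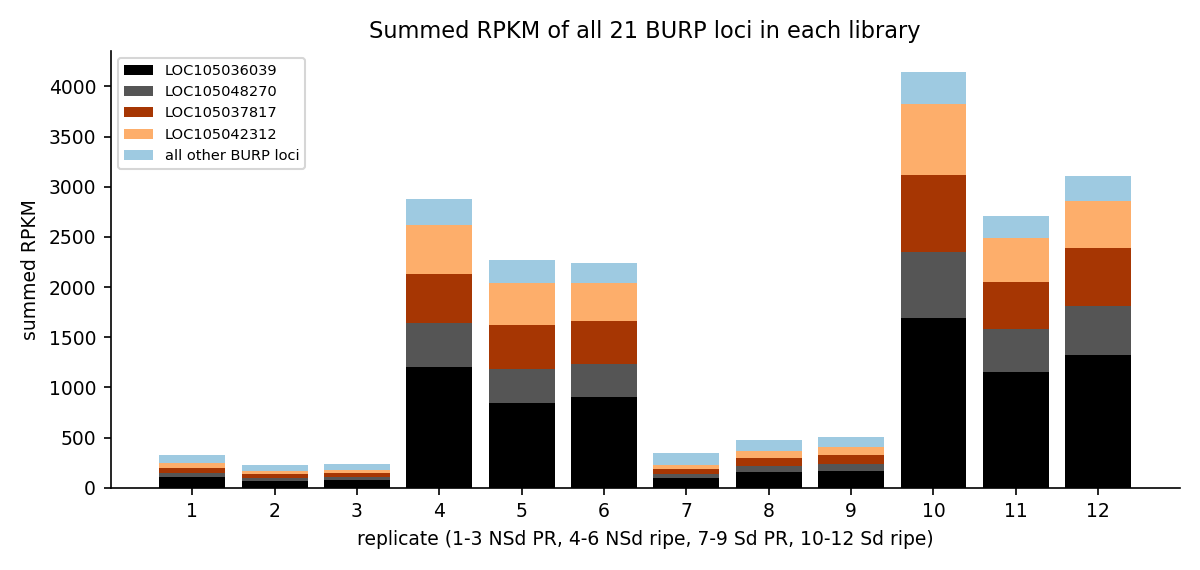
Summed RPKM of the 21 BURP loci in each library, divided into the pair, LOC105037817, LOC105042312 and all other BURP loci. The sum lies between 232 and 506 RPKM in the PR libraries and between 2238 and 4147 RPKM in the ripe libraries.

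The loci most like each member were ranked by Pearson's r of log2(RPKM + 1) over the 12 libraries, among 5866 loci. For LOC105036039 they were LOC105048270 (r = 0.999), LOC105037817 (0.9986), LOC105042312 (0.996), the extensin LOC105037998 (0.975), a structural cell wall glycoprotein, and a ribulose bisphosphate carboxylase small chain, LOC105039639 (0.966), a subunit of the enzyme that fixes carbon dioxide. For LOC105048270 the list was the same except that LOC105037616 (0.964) took the last place. The 3 BURP loci at the head of each list were also among the 5 highest by Spearman's rho, and the others were not. The extensin averaged 3.46 and 25.5 RPKM in PR and ripe Sd and 0.772 and 26.0 RPKM in PR and ripe NSd. Its palm difference at the PR stage was -1.37 (log2, NSd minus Sd), from a PR NSd mean near the floor. The median of all loci there was -0.35. The extensin was chosen by its r with the pair over these same libraries, and the pair had its lowest mean in PR NSd. No call is therefore given for this difference. These r values are descriptions, over libraries that all share the step between the stages.

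Lists for the enzymes and signals named above gave 0 calls between the stages of Sd, where so few loci were called in all (0.659% higher and 0.429% lower) that 0 says nothing about a list. Over all loci an unadjusted p under 0.05 was reached by 12.5% higher and 10.1% lower in Sd, and 7.77% were called higher and 3.07% lower in NSd. Of 23 tested polygalacturonases, enzymes that cut pectin, 0 were called in Sd (limma, 5 higher and 2 lower at an unadjusted p under 0.05), and 5 were called higher and 1 lower in NSd. The polygalacturonase PG4 averaged 48.0 and 94.1 RPKM in PR and ripe Sd and 60.3 and 137 RPKM in NSd, with no call. LOC105056882 (polygalacturonase-like) averaged 28.0 ± 9.64 and 142 ± 52.6 RPKM in Sd (log2 change 2.28, adjusted p = 0.0217, not called) and 14.1 ± 8.43 and 80.3 ± 40.4 RPKM in NSd (2.53, adjusted p = 0.00205). Among 24 pectinesterases and pectate lyases 0 were called in Sd (3 higher and 1 lower unadjusted), and 2 higher and 1 lower in NSd. Of 14 dehydrin and late embryogenesis abundant loci 0 were called in Sd (3 and 3 unadjusted), and 3 higher and 2 lower in NSd. Of 90 loci for ABA receptors and for protein phosphatases 2C, a large family of which some members act against the ABA signal, 0 were called in Sd (15 and 9 unadjusted), and 10 higher and 5 lower in NSd, near the shares over all loci.

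AZ tissue cut from a fruit base can hold other cells beside the AZ. Fewer cells of a type cannot be told apart from less RNA per cell in these bulk samples. Abscission zone markers (HAESA-like kinases, IDA, BLADE-ON-PETIOLE and KNOTTED-like loci) were listed at 0 for 3 of 30 loci, with a summed level of 458 to 514 and 475 to 518 RPKM in PR and ripe Sd and 327 to 375 and 415 to 488 RPKM in PR and ripe NSd. None of the 23 tested was called in Sd (limma, 4 higher and 5 lower at an unadjusted p under 0.05). In NSd 3 were called higher at the ripe stage and 0 lower, beside 7.77% and 3.07% of all loci, and at the PR stage 1 was called above and 7 below the Sd level, beside 12.9% of all loci in either direction. Mesocarp and oil markers went the other way from the pair in Sd, from a sum of 2479 to 2622 RPKM at the PR stage to 1366 to 2257 at the ripe stage, with 3 of 23 called lower beside 0.429% of all loci, and with the pair in NSd, from 1954 to 2171 to 2510 to 3625 RPKM, with 7 called higher beside 7.77%. Photosynthetic markers, all 22 detected, summed to 71.1 to 93.3 and 108 to 189 RPKM in PR and ripe Sd and to 30.4 to 44.3 and 79.3 to 91.5 RPKM in PR and ripe NSd, so that this sum, like the pair, was higher in every ripe library than in the PR libraries of the same palm. In Sd this sum rested on few loci: LOC105039639 averaged 30.6 and 61.4 RPKM, the chlorophyll a-b binding protein LOC105032174 averaged 16.4 ± 6.17 and 41.2 ± 35.8 RPKM, and another, LOC105046981, averaged 13.04 and 9.01 RPKM. Of the 14 tested 0 were called in Sd (limma, 2 higher and 1 lower at an unadjusted p under 0.05) and 5 higher in NSd. Lignified and vascular markers went from 799 to 832 RPKM to 817 to 948 in Sd and from 420 to 516 to 642 to 762 in NSd. Seed markers were at 446 to 517 and 345 to 398 RPKM in Sd and at 137 to 163 and 178 to 270 in NSd. The part of these cell types in the levels of the pair was not tested.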

How the data were processed

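Total RNA from AZ tissue cut from the base of the fruit was sequenced as single reads in 12 libraries. The authors trimmed reads with bcl2fastq 2.20.0.422, mapped them with BWA-MEM to the E. guineensis transcriptome, counted reads with SAMtools, merged transcripts of a locus and deposited RPKM values, 1 file per library. Mapping across species and between similar transcripts can lower or divide the reads of a locus. Here, aligned reads per library and reads per BURP locus were recovered from the steps of the RPKM values (tolerance 0.001). RPKM was transformed to log2(RPKM + 1), which understates changes of low loci. All 12 libraries were fitted with limma 3.58.1 (R 4.3.3, mean-variance trend, 1 mean per group) over 20495 loci with at least 1 RPKM in a library. The pipeline was tested on simulated data. Count models were not run, since the files hold RPKM. The members, lists, markers and tests were chosen with earlier results of these data known. Named loci were the pair, the BURP family by description, the 5 loci most like each member among those whose top group averaged 20 RPKM or more, and the 3 highest loci of each list. Alternatives were a pseudocount of 0.1, no filter, only the compared groups, RPKM rescaled by the median ratio, no trend, robust moderation and leaving out each library. Leaving rRNA reads out of the totals, leaving out the 3 PR NSd libraries and summing the BURP loci were added after seeing the data. Tables and plots were made with Python 3.11.15, numpy 2.4.6, pandas 2.3.3 and matplotlib 3.10.9.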

Additional observations from a re-analysis of the deposited data

How the results depend on the processing

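No palm difference of the pair was called under any alternative run. Adjusted p (limma) ranged from 0.00468 to 0.341 at the PR stage, 0.119 to 0.378 at the ripe stage and 0.0032 to 0.134 averaged for LOC105036039, and from 0.0118 to 0.447, 0.146 to 0.432 and 0.00741 to 0.183 for LOC105048270. With RPKM rescaled by the median ratio, the stage change in NSd was 3.17 for LOC105036039 and 3.05 for LOC105048270, and the difference between stage changes turned to -0.12 and -0.15. The count of loci called between the stages in Sd was 223, and was 101 without the filter, 71 when the fit held the compared groups alone and 42 to 410 with 1 library left out. Between the ripe palms 501 loci were called, 333 with no filter and 133 to 611 with 1 library left out. With a pseudocount of 0.1, 3966 loci were called between the PR palms (2642 before) and 1430 in the average (712 before). The 5 calls among the other BURP loci in Sd stood at 5 under every alternative run. In NSd the count was 6 or 7, and LOC105047509 was the locus lost, with no filter, rescaled, with rRNA reads left out, and without replicate 1, 2, 3, 4, 6 or 8 (adjusted p from 0.0102 to 0.0378). LOC105047509 was called lower in NSd at the PR stage with only the compared groups (adjusted p = 0.00108) and without replicate 12 (0.00442), and its interaction was called without replicate 10 (2.34, adjusted p = 0.00571). LOC105037817 was called at the PR stage without replicate 7 (-1.02, adjusted p = 0.00325). No paired analysis was possible because the replicate numbers 1 to 12 are not shared between groups. Log2 differences that were not called also changed sign at other BURP loci. With 1 library left out, the stage change in Sd ranged from -0.78 to 0.11 for LOC105047509 and from -1.39 to 0.024 for LOC105048272. The ripe palm difference of LOC105048271 ranged from -0.21 to 0.081, and the PR palm difference of LOC105047983 from -0.12 to 0.16. The averaged palm difference ranged from -0.32 to 0.12 for LOC105047509, from -0.11 to 0.031 for LOC105047983 and from -0.21 to 0.49 for LOC105048272. The interaction ranged from -0.25 to 0.027 for LOC105047983 and from -0.28 to 0.23 for LOC105048269. With rescaling by the median ratio the averaged difference was 0.16 for LOC105047509 and 0.19 for LOC105047983, and with rRNA reads left out 0.040 and 0.071. The interaction of LOC105037616 was -0.041 when rescaled, and with a pseudocount of 0.1 it was 0.23 for LOC105048269 and 0.084 for LOC105061550. The causes were not tested.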
